A study of Mus musculus with 10 samples.

Results

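The genes described here are the cystatins and lysosomal cathepsins of mouse cerebral cortex, 10 genes picked by symbol from the 12575 genes of an RNA sequencing table. The symbols sought were Cst3, Cstb, Ctsa, Ctsb, Ctsd, Ctsf, Ctsh, Ctsl, Ctss and Ctsz, and all 10 were found and tested. They hold 2 inhibitors, 6 cysteine proteases and 2 lysosomal proteases of other classes.
Cystatins are small proteins that plug the active site of papain-like cysteine proteases. Cystatin C, the product of Cst3, is secreted in large amounts into brain fluid by astrocytes and other cells, while cystatin B, the product of Cstb, stays inside cells. Cathepsins are made as inactive precursors, sorted to endosomes and lysosomes, and cut proteins there, although some also act outside cells. The products of Ctsd, an aspartic protease, and Ctsa, a serine carboxypeptidase, are not papain-like proteases.

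The study deleted Bmal1, a core gene of the circadian clock whose symbol in the table is Arntl, from astrocytes and sequenced whole cortical RNA of C57BL/6 mice. Labels give 5 libraries with no Cre, called Cre-, and 5 with Cre, called BMAL1 aKO, all from mice aged 4 months, whereas the paper states another age. Every mouse of either group carried the Bmal1 fl/fl alleles and received tamoxifen, and only BMAL1 aKO mice also had Aldh1l1-CreERT2, a Cre that tamoxifen switches on and that the astrocyte promoter Aldh1l1 drives. Cre- mice were littermates and both sexes entered each group. Neurons, microglia and other cells of BMAL1 aKO cortex kept an intact Bmal1, so a bulk level mixes cells with and without the deletion, and fewer cells of a type cannot be told apart from less RNA per cell. Nothing in the labels ties a library to 1 mouse by name, and the p-values below measure the spread between these 10 libraries.

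Arntl was at 34.2 ± 2.25 CPM (counts per 1e+06 reads, SD, n = 5) in Cre- libraries and at 34.5 ± 2.93 CPM (SD, n = 5) in BMAL1 aKO libraries, which checks no label because the gene was counted whole in mixed tissue. Depth ran from 21844770 to 48295715 reads per library. Differences below are log2 fold changes of BMAL1 aKO against Cre- on the log2(CPM + 0.5) scale, from limma with a quality weight per library, and a gene is called at an adjusted p of at most 0.1. Markers of neurons, astrocytes, oligodendrocytes and microglia were all present, as the tissue label requires, while 4 of 6 border macrophage markers (Lyve1, Pf4, F13a1 and Ms4a7) were not among the genes of the table. Cre- replicate 3 stood apart from the other libraries. It had the lowest share of mitochondrial genes, 6.19% against 9.29 to 19.9%, and the highest GC tilt, 0.86, which is the median centred log2 level of the 20% of genes richest in GC minus that of the 20% poorest in GC. Its quality weight was 0.181 and that of Cre- replicate 1 was 7.19. Cre- replicates 2, 4 and 5 had weights of 0.454, 0.519 and 1.52, so fitted Cre- levels rested mostly on replicate 1. Cre- replicate 4 had the next highest GC tilt, 0.42. The paper draws fewer BMAL1 aKO mice than the labels list, and neither its text nor the labels say which library was not drawn. Leaving out BMAL1 aKO replicate 3 raised the number of genes called from 42 to 844. Leaving out any other single library gave 1 to 54, and this does not tell which mouse the paper left out.

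Promoter sequence was looked at because BMAL1, as a dimer with CLOCK, binds the E-box CACGTG, which reads the same on both strands. RefSeq (GRCm38.p6) windows from 250 bases before to 50 bases after a start were at hand for 7 of the 10 genes, as 8 windows, and those of Cstb, Ctsb and Ctsh were not at hand. Cst3, Ctss and Ctsz had no CACGTG in their windows. The bases of Cst3 and Ctss upstream of the annotated gene are shown 5′ to 3′ on the gene's strand. Those of Cst3 are from chr2:148875693-148875762 (minus strand) and those of Ctss from chr3:95526536-95526785 (plus strand).
Cst3: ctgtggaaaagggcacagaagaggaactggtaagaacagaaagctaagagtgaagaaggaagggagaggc
Ctss: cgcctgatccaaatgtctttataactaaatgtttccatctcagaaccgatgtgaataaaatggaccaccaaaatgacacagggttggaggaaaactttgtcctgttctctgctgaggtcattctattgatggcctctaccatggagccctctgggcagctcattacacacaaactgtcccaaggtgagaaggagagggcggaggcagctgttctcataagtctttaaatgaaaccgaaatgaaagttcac
Windows of 4 genes held the E-box, namely Ctsa, Ctsd, Ctsf and Ctsl. Each match is shown with its flanking bases and with the E-box in capitals. They are the match of Ctsa 12 bases before an internal start at chr2:164833751-164833776 (plus strand), the matches of Ctsd 245 bases before the start at chr7:142388057-142388077 and 98 bases before it at chr7:142387910-142387935 (minus strand), the match of Ctsf 79 bases before the start at chr19:4855076-4855101 (plus strand), and the match of Ctsl 236 bases before a start at chr13:64370741-64370766 (minus strand).
Ctsa: agcaaactgtCACGTGatgcagatgc
Ctsd, far match: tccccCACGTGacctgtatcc
Ctsd, near match: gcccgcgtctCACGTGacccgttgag
Ctsf: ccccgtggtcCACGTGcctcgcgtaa
Ctsl: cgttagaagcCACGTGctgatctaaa
A further match in Ctsa lay just after the same internal start. The match of Ctsl and the near match of Ctsd also lie inside the annotated gene (chr13:64359337-64370890 and chr7:142375911-142388038). The longer form TCACGTGA, which contains the E-box, was present in windows of Ctsa and Ctsd. Over all 32851 RefSeq windows of this length, 7.15% held CACGTG and 0.974% held TCACGTGA. These letters are a description of the windows. They say nothing of whether BMAL1 or another protein binds there, and their part in any fitted difference was not tested.

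Of the 10 genes, Cst3 was called higher in BMAL1 aKO cortex and the other 9 were not called in either direction (limma). Over all 12573 genes tested, 0.334% were called, 36 higher and 6 lower, and 0.286% were called higher. An unadjusted p under 0.05 was reached by Cst3 and Ctss, beside 16.8% of all genes. The median log2 fold change of the 10 genes was -0.0021, and that of all genes was -0.04. With TMM scaling the median of all genes was -0.0021, so the counts of genes above or below 0 given below depend on the scaling. The groups overlapped for all 10 genes, whereas over all genes tested they stood fully apart with BMAL1 aKO higher for 0.620% and with BMAL1 aKO lower for 0.382%.

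**Figure D1:**
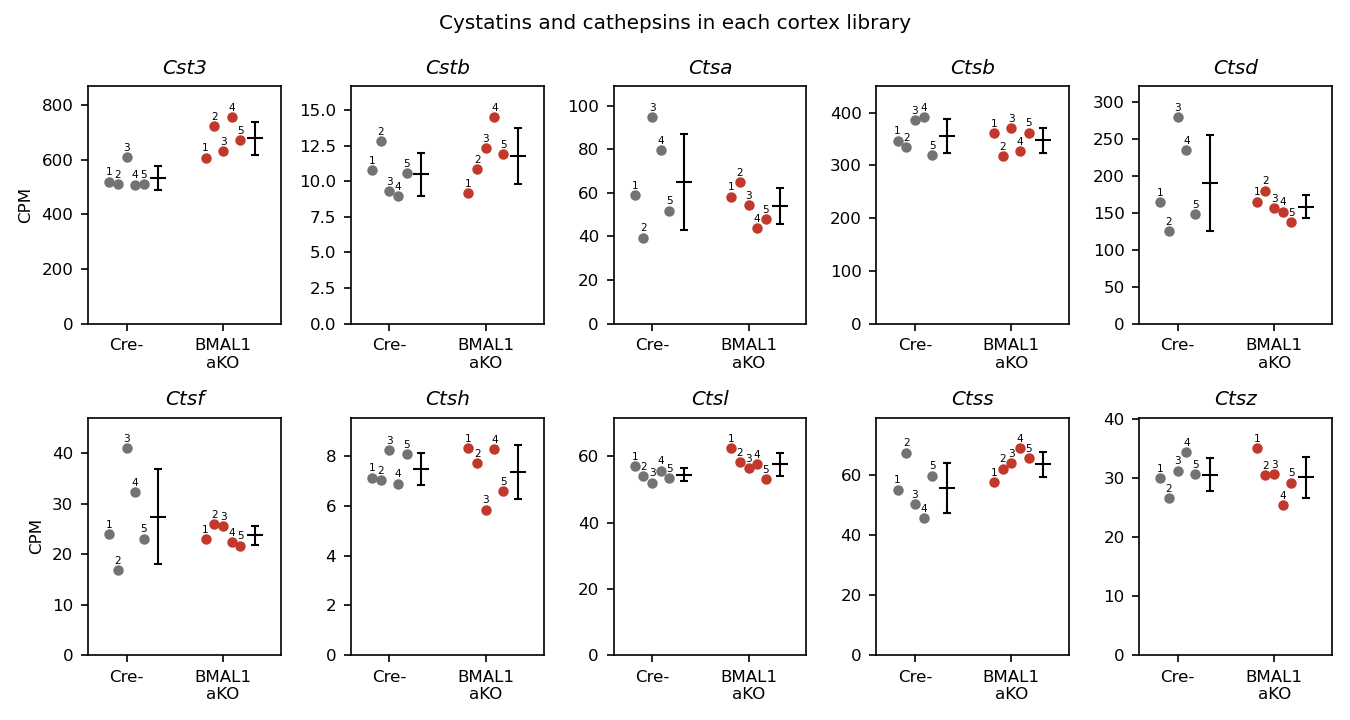
Level of each cystatin and cathepsin gene in CPM (vertical axes start at 0) in every Cre- (grey) and BMAL1 aKO (red) library, numbered by replicate, with the group mean and SD as a cross and bar (n = 5). Cst3 was at 607.97 CPM or more in all BMAL1 aKO libraries, and the Ctsa, Ctsd and Ctsf panels show Cre- replicates 3 and 4 above the remaining Cre- libraries.

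Cst3 lies on chromosome 2 (148871722 to 148875692, minus strand, GRCm38) and overlaps no other annotated gene. Cre- replicates 1 to 5 had 519.9, 511.9, 611.2, 509.4 and 512.0 CPM of it. BMAL1 aKO replicates 1 to 5 had 608.0, 722.9, 633.2, 757.1 and 672.1 CPM. Thus 4 of the 5 BMAL1 aKO libraries lay above every Cre- library, all 5 lay above the Cre- median, and the groups touched where BMAL1 aKO replicate 1 fell just under Cre- replicate 3. The mean rose from 532.9 ± 44.0 to 678.7 ± 61.7 CPM (SD, n = 5 each). The log2 fold change was 0.38 (standard error 0.06, 95% interval 0.25 to 0.52, adjusted p = 0.0297, limma), a 1.31-fold higher level with an interval of 1.19 to 1.44. An exact permutation test (two-sided, on the mean log2 level) gave p = 0.0159, where 0.00794 is the smallest p that 5 against 5 libraries allow.
The direction of Cst3 was the same in all 22 alternative settings, whose log2 fold changes ran from 0.33 to 0.44. The threshold of 0.05 is among these settings and reuses the reported fit, so its value could not differ. The call was lost without Cre- replicate 1, Cre- replicate 4, Cre- replicate 5 or BMAL1 aKO replicate 4, with adjusted p of 0.657, 0.118, 0.511 and 0.131 (limma), and also without quality weights (adjusted p = 0.803) and with the replicate number as a block (0.36, adjusted p = 0.197, limma). Without BMAL1 aKO replicate 3 the log2 fold change was 0.44 (adjusted p = 0.0169, limma, in a fit that called 6.71% of genes), and the exact permutation test gave p = 0.0238. Without Cre- replicates 3 and 4 it was 0.40 (adjusted p = 0.0583, limma), and with the GC tilt of each library as a covariate it was 0.43 (adjusted p = 0.00806, limma). Both of these settings were added after the data had been seen, and the fit with the covariate called 3.87% of genes.
Of 16 astrocyte marker genes 1, the gap junction gene Gja1, was called (0.44, adjusted p = 0.0273, limma), beside 0.334% of all genes. No astrocyte marker was called in 8 of the 22 alternative settings. The fitted log2 fold change was above 0 for 12 of the 16, beside 4828 of all 12573 genes, with a median of 0.09, and it was below 0 for Aqp4 (-0.20), Glul (-0.14), Aldh1l1 (-0.04) and Fgfr3 (-0.03). The summed level of these markers was 8721 to 10300 CPM in Cre- libraries and at 9573 to 11518 CPM in BMAL1 aKO libraries, and these ranges overlap. The part of these markers in the Cst3 difference was not tested.
The genes whose profile over the 10 libraries was closest to that of Cst3, by the mean absolute difference of centred log2 levels, were Siva1, Uqcr11, Ntsr2, Lix1 and Chchd6. Their distances were 0.0523, 0.0594, 0.0662, 0.0703 and 0.0775, beside a median of 0.255 over 12572 genes. Ntsr2, a neurotensin receptor of astrocytes, was called itself (0.47, adjusted p = 0.0210, limma), whereas the other 4 were not (adjusted p = 0.154 to 0.199, limma). Over all genes tested 0.334% were called. These 5 genes were picked over libraries of both groups, so a fitted change in the direction of Cst3 follows from the choice. The nearest cathepsin was Ctss at a distance of 0.158, which ranked 542 among all genes.

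Cstb was far lower than Cst3, and its groups overlapped. It lies on chromosome 10 (78425669 to 78427622, plus strand) and encodes the inhibitor whose loss causes a progressive myoclonus epilepsy. Its levels were 10.8, 12.8, 9.31, 8.98 and 10.6 CPM in Cre- replicates 1 to 5. Those of BMAL1 aKO replicates 1 to 5 were 9.15, 10.8, 12.3, 14.5 and 11.9 CPM. The highest library was a BMAL1 aKO library and 4 of 5 lay above the Cre- median, yet BMAL1 aKO replicate 1 was near the bottom of the Cre- range. The log2 fold change was 0.16 (95% interval -0.06 to 0.38, adjusted p = 0.421, limma), so the data allow anything from a slightly lower level to a 1.30-fold higher one. The exact permutation test gave p = 0.325.

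**Figure D2:**
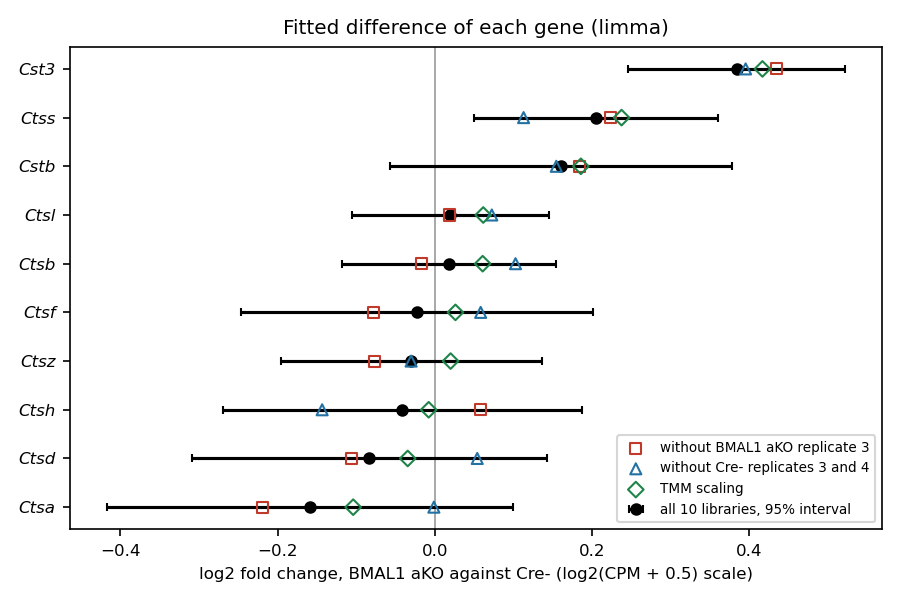
Log2 fold change of each gene, BMAL1 aKO against Cre-, on the log2(CPM + 0.5) scale, with the limma fit of all 10 libraries as a black point and its 95% interval, and 3 alternative fits as open symbols. The interval of Cst3 (0.25 to 0.52) and that of Ctss (0.05 to 0.36) lie above 0, and the intervals of the other 8 genes include 0.

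Among the 6 cysteine cathepsins none was called, and their fitted log2 fold changes ran from -0.04 for Ctsh to 0.21 for Ctss. The change was above 0 for 3 of the 6, beside 4828 of all 12573 genes.
Ctss, an endopeptidase that stays active at neutral pH and that microglia and other antigen-presenting cells use to process the invariant chain, had the largest fitted difference of the proteases. Cre- replicates 1 to 5 had 55.0, 67.3, 50.3, 45.6 and 59.7 CPM of it, and BMAL1 aKO replicates 1 to 5 had 57.4, 62.0, 63.7, 68.7 and 65.6 CPM. All 5 BMAL1 aKO libraries were above the Cre- median, but Cre- replicate 2 exceeded 4 of them. The log2 fold change was 0.21 (95% interval 0.05 to 0.36, unadjusted p = 0.0131, adjusted p = 0.198, limma), which did not pass the threshold over all genes. The exact permutation test gave p = 0.103. The fitted difference was above 0 in all 22 alternative settings, from 0.11 to 0.26, and the smallest adjusted p was 0.112 (limma).
Of 17 microglia marker genes none was called, and 5 were at an unadjusted p under 0.05 (limma), beside 16.8% of all genes. Without BMAL1 aKO replicate 3 there were 2 called, in a fit that called 6.71% of genes. The fitted log2 fold change was above 0 for 15 of the 17, beside 4828 of all 12573 genes, and the median was 0.13. Their summed level was 337.9 to 496.3 CPM in Cre- libraries and at 338.2 to 443.7 CPM in BMAL1 aKO libraries, with the highest sum in Cre- replicate 3, where Ctss was second lowest. The smallest p values among them were those of Fcrls, a scavenger receptor-like gene of microglia (0.31, adjusted p = 0.189, limma), and Aif1, which encodes IBA1 (0.38, adjusted p = 0.192, limma). Their part in the Ctss values was not tested.

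Ctsb and Ctsl, which encode broadly expressed lysosomal cysteine proteases, varied least among the 10 genes. Cre- replicates 1 to 5 had 346.8, 333.9, 385.5, 391.7 and 319.9 CPM of Ctsb, and BMAL1 aKO replicates 1 to 5 had 361.6, 317.8, 370.2, 326.5 and 361.8 CPM. The 2 groups covered nearly the same range, and the highest library was 1.23 times the lowest. The log2 fold change of Ctsb was 0.02 (95% interval -0.12 to 0.15, adjusted p = 0.903, limma). On chromosome 14 (63122462 to 63145923, plus strand) Ctsb shares 774 exonic bases with Fdft1 on the opposite strand, and since the libraries do not mark strand, reads there could belong to either gene.
Ctsl ranged from 52.1 to 57.0 CPM in Cre- libraries and from 53.1 to 62.4 CPM in BMAL1 aKO libraries. Its log2 fold change was 0.02 (95% interval -0.11 to 0.15, adjusted p = 0.883, limma). On plain means Ctsl was 54.4 ± 1.94 CPM in Cre- libraries and 57.6 ± 3.36 CPM in BMAL1 aKO (SD, n = 5 each), and 3 of 5 BMAL1 aKO libraries were above every Cre- library (exact permutation test, p = 0.103). Without quality weights its log2 fold change was 0.08, and Cre- replicate 1, the library of largest weight, was the highest Cre- library for Ctsl. An annotated antisense gene, Gm47123, shares 1742 exonic bases with Ctsl on chromosome 13 (64359337 to 64370890, minus strand), and a pseudogene, Gm49230, shares 395.

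Ctsh, an aminopeptidase, was the lowest of the 10 genes, at 6.91 to 8.25 CPM in Cre- libraries and at 5.86 to 8.32 CPM in BMAL1 aKO libraries. The library with fewest reads of it still held 154. Its log2 fold change was -0.04 (95% interval -0.27 to 0.19, adjusted p = 0.865, limma).
Ctsz, a carboxypeptidase that removes single residues from the end of a protein, was at 26.6 to 34.4 CPM in Cre- libraries and at 25.4 to 35.0 CPM in BMAL1 aKO libraries, nearly the same span. Its log2 fold change was -0.03 (95% interval -0.20 to 0.14, adjusted p = 0.867, limma). Ctsz overlaps Nelfcd on the opposite strand by 10 exonic bases.

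Ctsf, Ctsd and Ctsa behaved alike across the libraries, and their spread within Cre- exceeded any difference between the groups. Ctsf encodes a cysteine protease whose loss causes a form of neuronal ceroid lipofuscinosis, the storage disease that loss of Ctsd also causes. Ctsd encodes the main aspartic protease of the lysosome. The product of Ctsa trims the ends of peptides and holds lysosomal galactosidase and neuraminidase in a stable complex.
Cre- replicates 1 to 5 had 164.5, 125.0, 280.1, 235.2 and 148.0 CPM of Ctsd, and BMAL1 aKO replicates 1 to 5 had 165.4, 180.2, 156.3, 151.9 and 137.7 CPM. The BMAL1 aKO libraries lay close together and inside the Cre- range. Cre- replicates 1 to 5 had 59.1, 39.5, 94.8, 79.5 and 51.8 CPM of Ctsa, and BMAL1 aKO replicates 1 to 5 had 58.3, 64.8, 54.3, 43.9 and 48.0 CPM. Cre- replicates 1 to 5 had 24.0, 16.8, 41.0, 32.3 and 23.1 CPM of Ctsf, and BMAL1 aKO replicates 1 to 5 had 23.1, 26.0, 25.5, 22.4 and 21.7 CPM. In each of the 3 genes Cre- replicate 3 was the highest of all 10 libraries, Cre- replicate 4 the next, and Cre- replicate 2 the lowest.
The coefficient of variation within Cre- was 34.0% for Ctsd, 34.1% for Ctsa and 34.1% for Ctsf, and within BMAL1 aKO it was 10.00%, 15.3% and 8.09%. The SD of log2 levels in Cre- was 3.34, 2.25 and 4.25 times that in BMAL1 aKO, beside a median ratio of 1.51 over all genes. The log2 fold changes were -0.08 for Ctsd (95% interval -0.31 to 0.14, adjusted p = 0.702, limma), -0.16 for Ctsa (-0.42 to 0.10, adjusted p = 0.503, limma) and -0.02 for Ctsf (-0.25 to 0.20, adjusted p = 0.930, limma). Exact permutation tests gave p = 0.405, 0.421 and 0.548. Without Cre- replicates 3 and 4 the log2 fold changes became 0.05 for Ctsd, -0.0010 for Ctsa and 0.06 for Ctsf. With all 10 libraries but no quality weights they were -0.21, -0.21 and -0.14.
The order of the Cre- libraries in these genes was that of the GC tilt, from 0.86 in Cre- replicate 3 and 0.42 in replicate 4 to -0.53 in replicate 2, and the reverse of that of the mitochondrial share, from 6.19% in Cre- replicate 3 and 9.29% in replicate 4 to 19.9% in replicate 2. Transcripts of all 3 genes are rich in GC, at 55.9% for Ctsd, 54.5% for Ctsa and 56.4% for Ctsf. Cst3 (57.2%) and Ctsz (57.3%) are as rich. Ctsz was at 34.4 CPM in Cre- replicate 4, 31.3 CPM in replicate 3 and lowest in replicate 2 (26.6 CPM), and Cst3 was highest in Cre- replicate 3 and lowest in replicate 4. With the GC tilt as a covariate the standard error of the log2 fold change fell from 0.10 to 0.06 for Ctsd, from 0.12 to 0.06 for Ctsa and from 0.10 to 0.07 for Ctsf, and none was called. Whether library preparation set these levels was not tested. Ctsa also shares 495 exonic bases with Pltp on the opposite strand, a gene at 10.4 to 44.5 CPM in Cre- and highest in Cre- replicate 3. Ctsd shares 808 exonic bases with Gm49369 on its own strand.

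**Figure D3:**
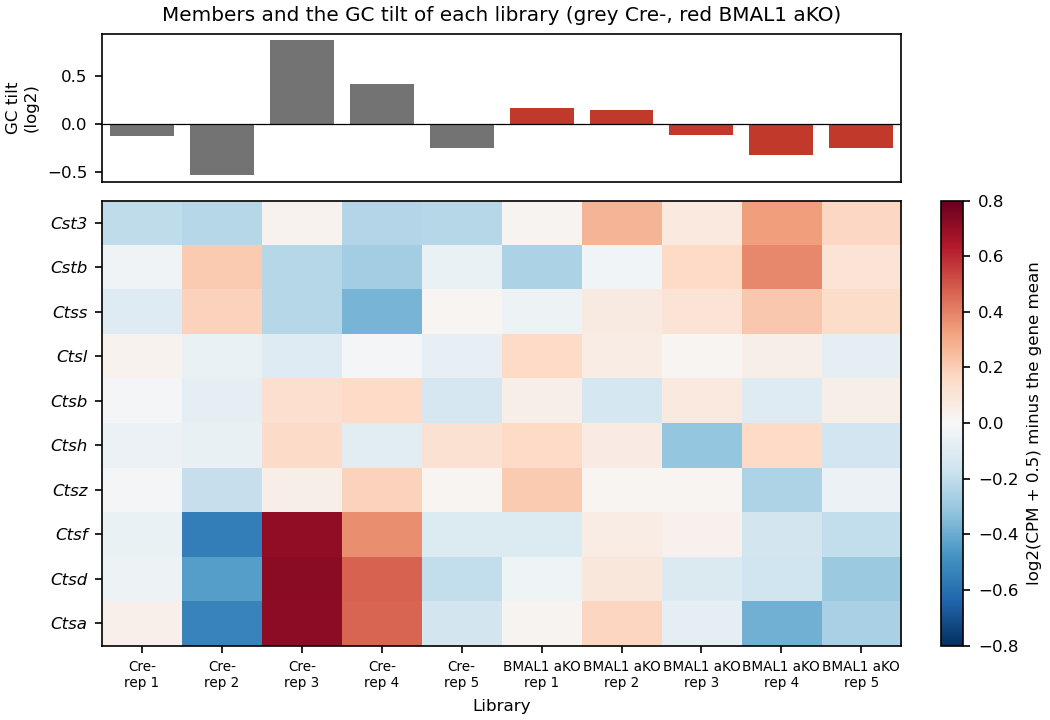
Upper panel, the GC tilt of each library (log2). Lower panel, the centred log2(CPM + 0.5) level of each gene (rows) in each library (columns), red above and blue below the mean of that gene. Ctsf, Ctsd and Ctsa are highest in Cre- replicate 3 (GC tilt 0.86) and lowest in Cre- replicate 2 (GC tilt -0.53), and Cst3 is high in the BMAL1 aKO columns.

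Per length of the main transcript, Cst3 stood far above every protease and belonged to the top 0.143% of all genes. Its level was 619.6 ± 51.1 CPM per kb in Cre- libraries and 789.1 ± 71.7 CPM per kb in BMAL1 aKO cortex (SD, n = 5 each). Ctsd followed at 89.6 ± 30.5 CPM per kb in Cre-, then Ctsb at 74.96 ± 6.68, Ctss at 41.0 ± 6.21, Ctsl at 27.6 ± 0.985 and Ctsz at 21.2 ± 1.96 CPM per kb. At the low end were Ctsa at 17.8 ± 6.07, Cstb at 17.4 ± 2.51, Ctsf at 13.9 ± 4.73 and Ctsh at 4.63 ± 0.390 CPM per kb.
Neighbours in this order were in the same order in all 10 libraries for Cst3 over Ctsd, Ctsb over Ctss, Ctss over Ctsl, Ctsl over Ctsz and Ctsf over Ctsh. Ctsd exceeded Ctsb in 7 of 10 libraries, Ctsz exceeded Ctsa in 9 and Cstb exceeded Ctsf in 8. Ctsa exceeded Cstb in 3 of 10, so these genes cannot be ranked, and Ctsd and Ctsb do not differ beyond their spread. The order also rests on the transcript chosen, and with the union of all annotated exons as the length Ctsl moved from rank 5 to rank 8.

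**Figure D4:**
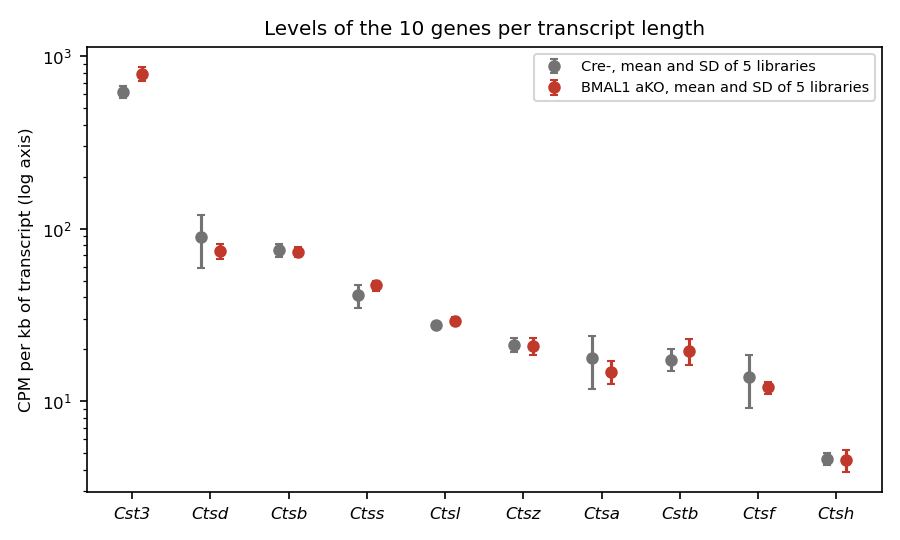
Mean level of each gene in CPM per kb of its main transcript (log axis) with Cre- in grey, BMAL1 aKO in red and the SD of 5 libraries as a bar. Cst3 (619.6 and 789.1 CPM per kb) stands above all cathepsins, and Ctsh (4.63 and 4.55 CPM per kb) is the lowest.

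The inhibitor was then set against the proteases it binds within each library, which needs no scaling between libraries. The summed level of the 6 cysteine cathepsins was 531.0 ± 34.4 CPM in Cre- libraries and 529.9 ± 22.8 CPM in BMAL1 aKO cortex (SD, n = 5 each), a difference well inside the spread. Cst3 divided by this sum was 1.0, 1.01, 1.08, 0.899 and 1.03 in Cre- replicates 1 to 5. In BMAL1 aKO replicates 1 to 5 it was 1.11, 1.44, 1.146, 1.49 and 1.25. All 5 BMAL1 aKO ratios lay above every Cre- ratio, with means of 1.004 ± 0.0655 and 1.29 ± 0.170 (SD, n = 5 each). These are ratios of read counts and not of proteins, and no test was run on them because they are built from genes already described.
With each level divided by transcript length before summing, 4 of 5 BMAL1 aKO ratios lay above every Cre- ratio, and the lowest (3.695) was just under the Cre- maximum (3.696). With each cathepsin weighted equally, the log2 level of Cst3 minus the mean log2 level of the 6 cathepsins was 3.63 ± 0.08 in Cre- and 3.97 ± 0.15 in BMAL1 aKO libraries (SD, n = 5 each), a difference of 0.34 that ran from 0.29 to 0.39 when each library was left out in turn. Against single proteases, Cst3 over Ctsb was 1.504 ± 0.121 in Cre- and 1.97 ± 0.307 in BMAL1 aKO cortex, and all 5 BMAL1 aKO libraries lay above every Cre- library. Against Ctsh and against Ctsz 4 of 5 BMAL1 aKO libraries lay above every Cre- library, against Ctsl 3 did, and against Ctsf 2 did. Against Ctss the ratio was 9.79 ± 1.86 in Cre- and 10.7 ± 0.673 in BMAL1 aKO cortex, with no BMAL1 aKO library above the Cre- range.

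**Figure D5:**
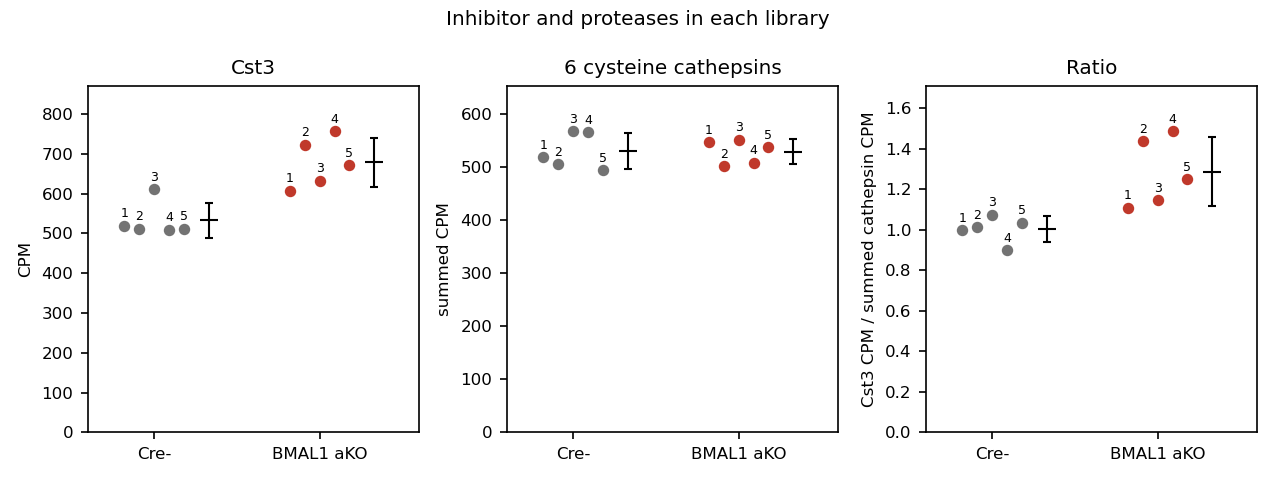
Cst3 (CPM), the summed level of the 6 cysteine cathepsins Ctsb, Ctsf, Ctsh, Ctsl, Ctss and Ctsz (CPM), and their ratio in each Cre- (grey) and BMAL1 aKO (red) library, with group mean and SD (n = 5). The sums, which are mostly Ctsb, overlap (494.7 to 568.3 and 502.3 to 552.3 CPM), while the ratios do not (0.899 to 1.08 and 1.11 to 1.49).

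Of 17 further cathepsins and cystatins sought, 3 were in the table. The fitted log2 fold change was 0.09 for Ctsc, which activates serine proteases of immune granules (adjusted p = 0.659, limma), -0.08 for Ctso (adjusted p = 0.646, limma) and 0.09 for the cystatin Cst6 (adjusted p = 0.750, limma). Other genes of the lysosome gave no calls either, in a fit that called 0.334% of all genes. Of 33 lysosomal hydrolases none was called and the median log2 fold change was -0.05, close to that of all genes, and the smallest p values belonged to Idua (0.18, adjusted p = 0.251, limma) and Tpp1 (0.14, adjusted p = 0.321, limma), which degrade glycosaminoglycans and peptides. Of 30 lysosomal membrane proteins and proton pump subunits none was called, and the median was -0.05. An unadjusted p under 0.05 (limma) was reached by 8 of them, beside 16.8% of all genes. Pump subunits Atp6v1h (-0.22, adjusted p = 0.182, limma) and Atp6v1a (-0.21, adjusted p = 0.183, limma) came first by p. Of 20 genes that sort or activate lysosomal enzymes none was called and 17 were below 0, beside 7745 of all 12573 genes. Their median was -0.11, and the receptors Igf2r (-0.22, adjusted p = 0.194, limma) and Sorl1 (-0.23, adjusted p = 0.250, limma) came first by p.
Among 24 further measured genes of protease inhibitors and related proteins none was called, and the median was -0.01. The smallest p values were those of Tfpi, an inhibitor of the tissue factor pathway of clotting (0.48, adjusted p = 0.182, limma), and Serpinb1a, an inhibitor of neutrophil proteases (0.43, adjusted p = 0.183, limma). In the fit of all 10 libraries Cst3 was the only called gene among these 24 genes, the 10 members and the other lysosomal lists named above. That fit called 0.334% of all genes, so few calls would be met in lists of this size in any case. Without BMAL1 aKO replicate 3 up to 3 genes were called in a lysosomal list, in a fit that called 6.71% of genes.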

How the data were processed

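Cortical RNA of 10 mouse libraries was sequenced, 5 Cre- and 5 BMAL1 aKO by the labels. The authors prepared SMARTer low-input libraries, which do not mark strand, aligned reads with STAR 2.5.1a to GRCm38 and took gene counts with featureCounts 1.4.6-p5. The deposited values are CPM per gene and library, and they summed to 991185.6 to 992701.5 in each, so the TMM factors named in the methods (0.923 to 1.10 when computed here) are not in them. In steps of 1 read, 100% of values were whole within 0.01 read, which gave depths of 21844770 to 48295715 reads. Libraries of a group differed with chi-square values of 12.9 to 447.5 per degree of freedom over 20 pairs, far above sampling noise.
A filter of more than 1 CPM in at least 4 libraries left 12573 of 12575 genes. Their log2(CPM + 0.5) entered limma 3.58.1 (R 4.3.3) with arrayWeights, a variance trend and Benjamini-Hochberg adjustment over all genes, at the threshold of 0.1 used by the study. The pseudocount understates changes of low genes. The removal of ribosomal genes was not repeated. All 10 libraries entered, since the text of the paper does not say which was not drawn. Single genes were also tested by two-sided exact permutation of the mean log2 level. Fits were tested on simulated data with independent noise per gene and no GC tilt. That check does not cover libraries of unequal quality such as these. Names were matched to GENCODE M21 (12556 of 12575), which gave positions, overlaps and transcript lengths, and promoter windows came from RefSeq. Python 3.11.15, NumPy 2.4.6, pandas 2.3.3 and matplotlib 3.10.9 were used.
The 10 members and 12 further lists were chosen with earlier results of these data known. Genes named beyond the members were the measured genes of the list of other cathepsins and cystatins, the called genes of each other list (at most 4, or else the 2 of smallest p), Arntl, Aldh1l1, genes that overlap a member and the 5 genes closest in profile to Cst3. A gene that this rule would name is not reported here. Alternatives were another pseudocount, other filters, no weights, TMM and median-of-ratios scaling, voomWithQualityWeights on recovered reads, a replicate block, Xist as a covariate, a threshold of 0.05 and the removal of each library in turn. A GC tilt covariate and the removal of Cre- replicates 3 and 4 were added after seeing the data.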

Additional observations from a re-analysis of the deposited data

Results flagged for a closer look

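Cst3 in Cre- replicate 3 was far from the other Cre- libraries. It was at 611.2 CPM, the other 4 Cre- libraries were at 509.4 to 519.9 CPM, and the gap made up 0.897 of the whole range, above the critical value of 0.710 for 5 libraries. This library also had the lowest mitochondrial share (6.19%), the highest GC tilt (0.86) and a quality weight of 0.181. Without it the log2 fold change of Cst3 was 0.39 (adjusted p = 0.0643, limma). In all, 22 groups were looked at in this way, and chance alone flags about 5% of them.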

How the results depend on the processing

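The 10 members were looked at under 22 alternatives, and no called value changed sign. Among these, the threshold of 0.05 reuses the reported fit, so its fold changes and p-values could not differ. Cst3 stayed above 0 in all 22 (0.33 to 0.44) and was called in 16, with adjusted p from 0.00806 to 0.803 (limma) and an unadjusted p under 0.05 in all 22. Without quality weights 4 genes were called over the whole table, 0 members and 0 genes of the other lists, and Cst3 had a log2 fold change of 0.35. With the replicate number as a block these were 7, 0 and 0, and 0.36 for Cst3 (adjusted p = 0.197, limma). The labels do not say whether the numbers pair the libraries. Deviations of same-numbered libraries had r of -0.625 to 0.364 over 5 pairs. These deviations also hold the differences in GC tilt and mitochondrial share, so they cannot tell whether libraries were paired. A library correlated best with its own number for 1 Cre- and 0 BMAL1 aKO libraries. Over all genes 42 were called in the comparison reported, against 76 with a mean of at least 10 CPM, 68 with TMM scaling, 22 with Xist as a covariate, 487 with the GC tilt as a covariate and 20 at a threshold of 0.05. Leaving out each library in turn gave 1 to 844 genes called (1 without Cre- replicate 1, 844 without BMAL1 aKO replicate 3), 0 to 1 members, 0 to 9 genes of the lists, 0.33 to 0.44 for Cst3 and 0.29 to 0.39 for Cst3 relative to the cysteine cathepsins. The cause of these changes was not tested. The weights did not converge without Cre- replicate 1 or Cre- replicate 5. The other 9 members were called in no alternative, and the uncalled differences of Ctsb, Ctsd, Ctsf, Ctsh and Ctsz changed sign in some. An edgeR quasi-likelihood test on recovered reads had been planned and was not run. Ctsh falls under the mean of 10 CPM and has no value there. The lowest read count of a member was 154, for Ctsh, which leaves its levels the most exposed to counting error.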

Other observations

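Other cell types were looked at through their markers in the fit of all 10 libraries. All 11 oligodendrocyte genes had a log2 fold change above 0, beside 4828 of all 12573 genes, with a median of 0.16. None of them was called, with Cldn11, a tight junction gene of myelin, at 0.21 (adjusted p = 0.300, limma). Their summed level was 3695 to 6523 CPM in Cre- libraries and at 4183 to 5997 CPM in BMAL1 aKO libraries. Without Cre- replicates 3 and 4 there was 1 oligodendrocyte gene called, in a fit that called 38 genes. Of 12 neuronal genes none was called and the median was -0.02. Without BMAL1 aKO replicate 3 there was 1 called, in a fit that called 6.71% of genes. In the fit of all 10 libraries Syt1, the calcium sensor of synaptic vesicles, was at -0.19 (adjusted p = 0.192, limma). The vesicular glutamate transporter Slc17a7 was at -0.27 (adjusted p = 0.319, limma). Of 10 endothelial and mural genes none was called and the median was 0.07, with Vtn at 0.17 (adjusted p = 0.314, limma) and Slco1a4 at 0.16 (adjusted p = 0.328, limma).
Markers of meninges and choroid plexus differed widely between libraries of either group. Their sum ran from 138.5 to 1092 CPM in Cre- libraries and from 108.6 to 1220 CPM in BMAL1 aKO libraries, and none of 8 was called, with Kl at -0.72 (adjusted p = 0.510, limma) and Col1a1 at 0.12 (adjusted p = 0.718, limma). Cre- replicate 5, which had the highest sum of its group, had 512.0 CPM of Cst3, and BMAL1 aKO replicate 1, which had the highest of all, had 608.0 CPM. The part of these markers in the Cst3 values was not tested. Of the border macrophage genes, the fitted log2 fold change was -0.15 for Cd163 (adjusted p = 0.514, limma) and 0.02 for Mrc1 (adjusted p = 0.943, limma). Aldh1l1, whose promoter drives Cre, was at 44.0 ± 11.6 CPM in Cre- libraries and at 38.0 ± 4.36 CPM in BMAL1 aKO cortex (SD, n = 5 each), and its fitted difference was -0.04 on the log2 scale (adjusted p = 0.865, limma).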
